A study of Mus musculus with 7 samples.

Results

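The genes described here encode the machinery by which neurons store transmitter in vesicles and release it: 49 genes were listed by name. The rule uses no measured value, but the list was drawn up with earlier results of these data known. It comprises calcium sensors, SNARE proteins, vesicle proteins, active zone proteins, transporters, adhesion molecules and granins. Of these, 48 had a probe set that carried their symbol alone, out of 19938 genes measured on the arrays. Vamp2 shares its probe set with Ubr3 and was not analysed here. The samples were fluorescent cells from C57BL/6 mouse cortex at embryonic day 14, isolated by flow cytometry 24 h after electroporation on embryonic day 13. Of the 7 samples, 4 were wild-type controls and 3 received a construct that knocks down Trnp1, a nuclear protein of cortical progenitors. All electroporated cells carried green fluorescent protein, so the sort selected transfected cells and no single cell type. The sources used here do not give the control construct, the sequence of the knockdown construct, or how many embryos each sample holds. Each sample is labelled a biological replicate, and p-values measure the spread between these samples only.

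A synaptic vesicle is filled by a transporter, docked at the active zone by scaffold proteins, and primed for fusion as SNARE proteins of the vesicle and the plasma membrane begin to zip together. Calcium that enters on an action potential binds synaptotagmins, which trigger fusion. Dense-core vesicles carry peptides and granins instead of classical transmitters and use related fusion proteins. In the embryonic cortex most of these genes are turned on as neurons mature, whereas progenitors express few of them. In bulk samples such as these, fewer cells of a type and less RNA per cell cannot be told apart.

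The comparison asks which release genes differ in cortical cells 1 day after Trnp1 was knocked down. The values are log2 levels from RMA, so a difference of 1 is 2-fold; array medians still ranged from 4.40 to 4.61. Values of different probe sets cannot be compared with each other as amounts. Trnp1 itself lay between 4.999 and 5.24 on the control arrays and between 4.55 and 4.85 on the knockdown arrays, in the direction of the labels (difference -0.40, SE 0.12; exact permutation test, two-sided, over 35 ways to assign the arrays, p = 0.0286, the smallest it can give). One array stood apart for the release genes. On knockdown replicate 3 their median deviation from the control mean was 0.55, against -0.14 and -0.10 on knockdown replicates 1 and 2 and -0.10 to 0.03 on the control arrays. The median over all 19938 genes on that array was -0.0048. The main counts are therefore given with and without knockdown replicate 3.

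**Figure D1:**
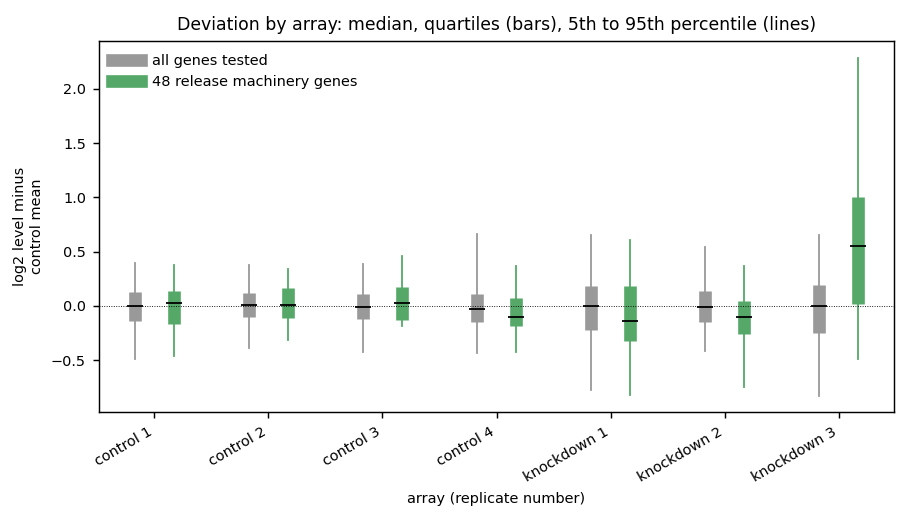
Deviation of each array from the control mean on the log2 scale (vertical axis) for all 19938 genes tested (grey) and the 48 release machinery genes (green). Dashes are medians, thick bars span the interquartile range and thin lines run from percentile 5 to percentile 95. The green median is at 0.55 on knockdown replicate 3 and between -0.14 and 0.03 on the other 6 arrays.

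No release gene passed the test over all genes. By limma, 0 of the 48 genes had an adjusted p under 0.05, as had 0 of all 19938 genes (0%), and the smallest adjusted p among the 48 was 0.825. Before adjustment, 3 release genes were higher with p under 0.05 (Syt1, Nlgn3 and Scg2), as were 2.20% of all genes. In the other direction 4 were lower with p under 0.05 (Slc17a6, Chga, Scg3 and Rab3c), as were 3.61% of all genes. All 3 knockdown arrays lay above all controls for 1 gene, Syt1 (2.59% of all genes). They lay below all controls for 4, namely Slc17a6, Chga, Scg3 and Syt11 (3.07% of all genes). Over the 48 genes the median difference was 0.15, with 36 higher and 12 lower, beside a median of -0.0010 over all genes. Without knockdown replicate 3 the median was -0.097, with 17 higher and 31 lower. The split between higher and lower also moved with the scaling: it was 28 and 20 with the array medians set equal, which shifts the median of all genes to -0.11, and 30 and 18 after a further quantile normalization. Relative to the median of all genes the 48 genes lay 0.15 higher with the array medians set equal and 0.16 higher after the quantile normalization.

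**Figure D2:**
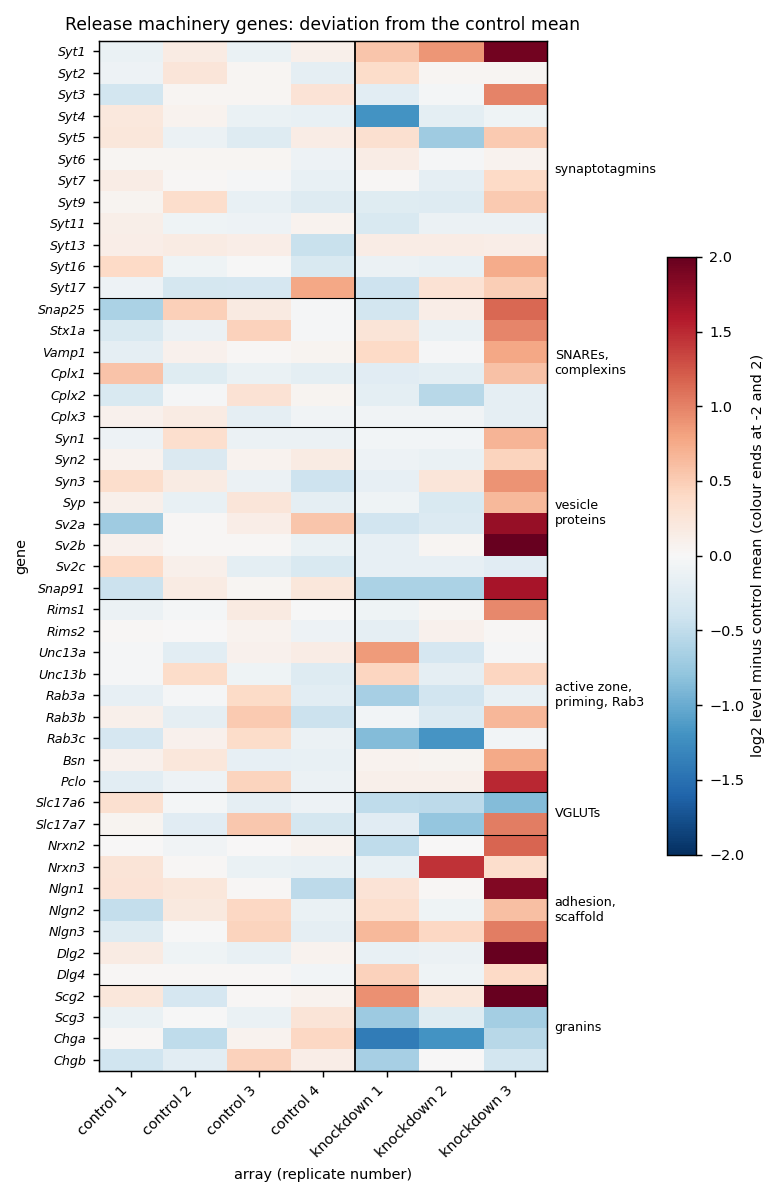
Log2 level minus the control mean for each of the 48 genes (rows, grouped by role) on each array (columns); red is higher and blue lower than the control mean, and colours end at -2 and 2. The column of knockdown replicate 3 holds the highest of the 7 values for 28 genes, while Slc17a6, Chga and Scg3 are blue on all 3 knockdown arrays.

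Without knockdown replicate 3, lower values outnumbered higher ones, with granins, Rab3 proteins and a vesicle coat protein among those of smallest p. That array was singled out by the high values of these same genes, so a shift to lower values without it follows from the choice. By limma 7 genes had an unadjusted p under 0.05 in the lower direction (2.39% of all genes) and 1, Syt1, in the higher direction (2.35% of all genes), while 0 of the 48 passed after adjustment (smallest adjusted p = 0.940). The 7 were Chga (-1.30, SE 0.25), Rab3c (-1.02, SE 0.22), Syt4 (-0.69, SE 0.29), Snap91 (-0.63, SE 0.20), Rab3a (-0.52, SE 0.20), Slc17a6 (-0.51, SE 0.16) and Scg3 (-0.49, SE 0.19). Both remaining knockdown arrays lay below all controls for these 7 and Syt11, 8 of 48 genes, where 6.52% of all genes did. With knockdown replicate 2 left out instead, the median of the 48 genes was 0.31. Then 5 genes were higher and 3 lower at an unadjusted limma p under 0.05, beside 4.42% and 7.63% of all genes.

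**Figure D3:**
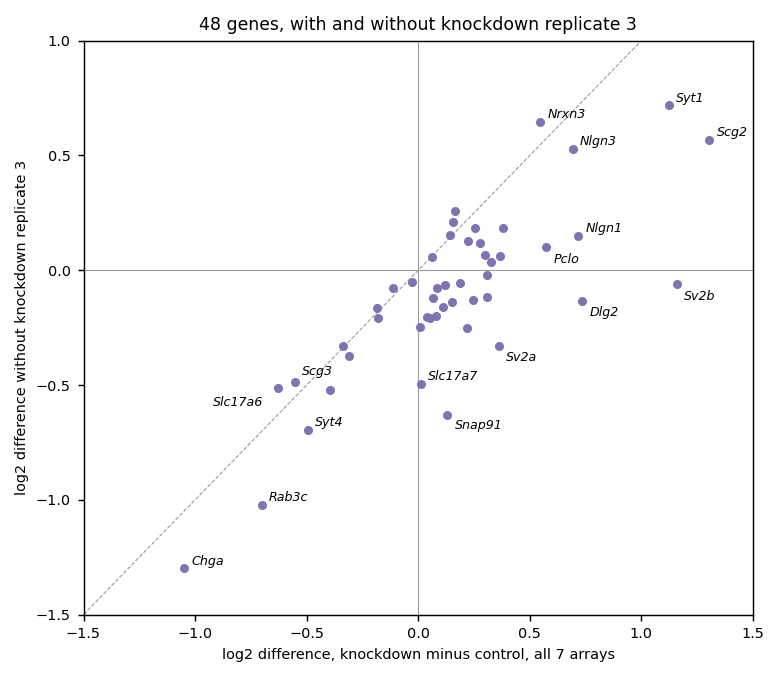
Log2 difference of knockdown minus control for the 48 genes over all 7 arrays (horizontal) and without knockdown replicate 3 (vertical); the dashed line marks equal values. Chga, Rab3c, Slc17a6 and Scg3 stay well below 0 on both axes and Syt1 above, whereas Sv2b and Dlg2 move from 1.16 and 0.74 to -0.06 and -0.14.

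The granins, acidic proteins that pack peptides into dense-core vesicles, held both the largest lower difference (Chga) and the largest higher one (Scg2) of the 48 genes. Their promoters are shown because all 4 hold, close to the start, the core letters of the cyclic AMP response element, a motif known from granin promoters, while their levels went different ways. The stretches are from RefSeq (GRCm38.p6), 5′ to 3′ on the strand of the gene, and end at the last base before the annotated start, except that of Scg3. The Scg3 stretch is 30 bases long because that start lies inside a longer model of the gene. It ends short of the start, so the distance of its core to the start cannot be counted from the letters shown. Capitals mark the core TGACG on either strand; where it is read on both strands, the capitals spell the full element TGACGTCA.
Chga, chr12:102554691-102554940, plus strand: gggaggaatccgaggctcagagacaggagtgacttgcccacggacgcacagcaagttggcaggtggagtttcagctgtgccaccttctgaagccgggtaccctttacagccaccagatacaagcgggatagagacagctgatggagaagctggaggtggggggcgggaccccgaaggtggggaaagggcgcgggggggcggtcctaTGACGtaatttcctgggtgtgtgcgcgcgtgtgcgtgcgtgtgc
Chgb, chr2:132781392-132781641, plus strand: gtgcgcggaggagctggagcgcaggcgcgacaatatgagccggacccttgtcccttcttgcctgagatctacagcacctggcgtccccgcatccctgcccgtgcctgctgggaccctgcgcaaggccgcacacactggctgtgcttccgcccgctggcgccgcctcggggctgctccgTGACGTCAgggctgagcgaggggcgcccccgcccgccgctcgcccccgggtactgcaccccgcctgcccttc
Scg2, chr1:79440027-79440276, minus strand: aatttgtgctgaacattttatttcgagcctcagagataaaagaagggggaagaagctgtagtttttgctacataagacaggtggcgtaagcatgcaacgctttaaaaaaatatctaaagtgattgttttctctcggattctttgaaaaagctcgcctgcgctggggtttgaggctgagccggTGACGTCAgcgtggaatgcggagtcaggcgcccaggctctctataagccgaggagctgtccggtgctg
Scg3, chr9:75684069-75684098, minus strand: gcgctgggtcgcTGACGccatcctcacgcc
The capitals begin 44 bases before the start in Chga, 72 in Chgb, 68 in Scg2 and 30 in Scg3. The core was searched on both strands in the 250 bases before each start; any TGACGTCA also counts as a core match. The promoter table matched 38 of the 48 genes, with 55 windows. The core occurred in 12 of the 55 windows (21.8%), those of 12 genes, beside 17.8% of all 32851 windows. TGACGTCA occurred in 3 of the 55 (5.46%; Chgb, Scg2 and Syn1), beside 1.55% of all windows. A match describes the letters only, and binding was not measured.

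Chga (Entrez 12652), which encodes chromogranin A, had log2 levels of 7.83, 7.29, 7.88 and 8.22 on the control arrays and 6.41, 6.60 and 7.25 on the knockdown arrays. All knockdown arrays lay below all controls, with replicates 1 and 2 far below and replicate 3 just under the lowest control. The means were 7.80 ± 0.383 (SD, n = 4) and 6.75 ± 0.441 (SD, n = 3), a difference of -1.05 (SE 0.27, 95% interval -1.68 to -0.41) or 2.07-fold. The limma adjusted p over all genes was 0.825, and the exact permutation p was 0.0571.

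Scg3 (Entrez 20255), which encodes secretogranin III, a protein that sorts chromogranin A to the granule membrane, stood at 8.25, 8.37, 8.25 and 8.64 in controls and 7.65, 8.13 and 7.70 in knockdown samples. The groups did not overlap, and knockdown replicate 2 lay closest to the controls. The difference was -0.55 (SE 0.16, 95% interval -0.94 to -0.17; limma adjusted p = 0.825, exact permutation p = 0.0286), and it lay between -0.71 and -0.46 with any 1 array left out. Chgb, which encodes chromogranin B, read 5.63, 5.82, 6.49 and 6.15 in controls and 5.36, 6.03 and 5.66 in knockdown samples. These groups overlapped, and the difference of -0.34 (SE 0.24) was smaller than the spread of either group.

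Scg2 (Entrez 20254), which encodes secretogranin II, ran the other way, at 3.73, 3.17, 3.52 and 3.58 in controls and 4.41, 3.73 and 6.28 in knockdown samples. Knockdown replicate 3 was far above all other arrays, replicate 1 was above the controls, and replicate 2 lay at the highest control. The difference was 1.31 (SE 0.55, 95% interval 0.026 to 2.59; limma adjusted p = 0.825), and 0.57 without knockdown replicate 3. The probe set was dim in controls, where RMA compresses differences. Of the 8 other dense-core vesicle genes measured, such as processing enzymes and receptor-type phosphatases of the granule, 3 were higher and 5 lower and 0 had an unadjusted p under 0.05. Ptprn2, one of those phosphatases, was again highest on knockdown replicate 3 (6.06, against 4.68 to 4.86 in controls).

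**Figure D4:**
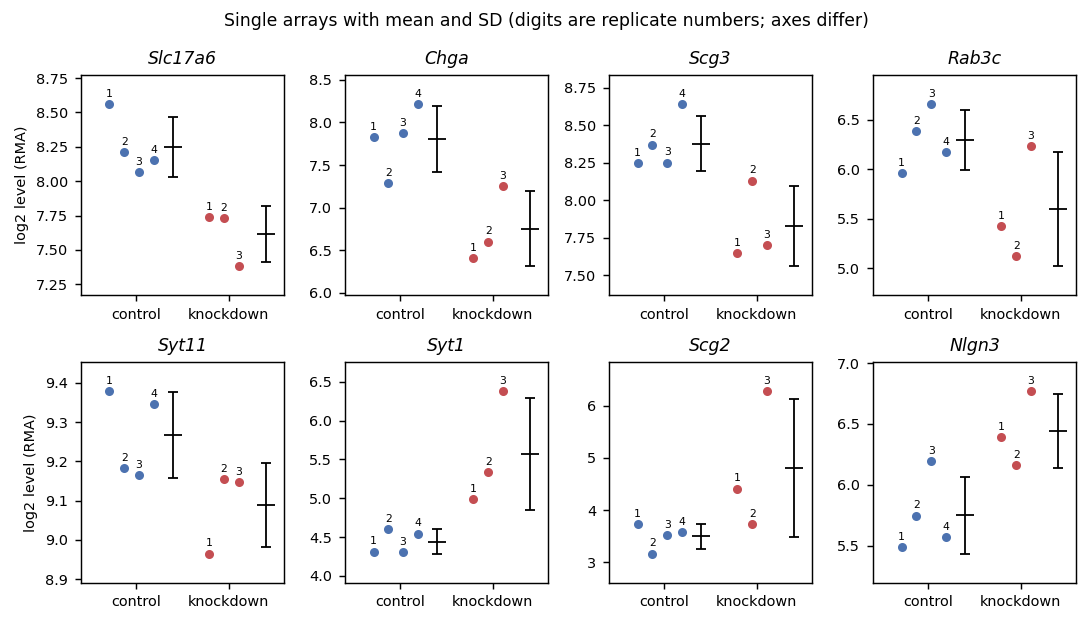
Log2 levels on single arrays (vertical axes, which differ between panels) for 8 genes; digits are replicate numbers, and the bar beside each group is its mean with SD (4 controls in blue, 3 knockdown samples in red). Slc17a6, Chga, Scg3 and Syt11 do not overlap between groups and are lower in knockdown samples, Syt1 does not overlap and is higher, and Rab3c, Scg2 and Nlgn3 overlap on at least 1 array.

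Both vesicular glutamate transporters on the list fill vesicles with glutamate. Slc17a6 (Entrez 140919, VGLUT2) is the form that predominates in many young cortical neurons, and it had the smallest p of all 48 genes. Its levels were 8.56, 8.21, 8.07 and 8.15 in controls and 7.74, 7.73 and 7.38 in knockdown samples. All knockdown arrays were below all controls, and knockdown replicate 3 was here the lowest array. The means were 8.25 ± 0.219 (SD, n = 4) and 7.62 ± 0.205 (SD, n = 3), a difference of -0.63 (SE 0.16, 95% interval -1.01 to -0.26) or 1.55-fold, with limma adjusted p = 0.825 and exact permutation p = 0.0286. It stayed between -0.69 and -0.51 with any 1 array left out.

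Slc17a7 (VGLUT1), the form of mature cortical neurons, read 5.28, 5.002, 5.78 and 4.88 in controls and 5.01, 4.47 and 6.26 in knockdown samples. It was lowest on knockdown replicate 2 and highest on knockdown replicate 3, and the difference of 0.012 (SE 0.42) was -0.094 with equal array medians and -0.49 without the latter array. On knockdown replicate 3 the transporters thus went apart: Slc17a7 lay 1.02 above its control mean and Slc17a6 0.87 below its own (deviation -0.87). Slc32a1, the vesicular transporter of GABA and glycine, read 4.06 to 4.18 in controls and 4.28, 4.86 and 4.52 in knockdown samples (0.45, SE 0.15, limma unadjusted p = 0.0183).

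Of the 12 synaptotagmins, 10 were higher and 2 lower over all arrays, but 4 were higher and 8 lower without knockdown replicate 3. Syt5, Syt6, Syt7 and Syt9 lay below 0 both with equal array medians and after the quantile normalization, which left 6 synaptotagmins on each side. Syt1 (Entrez 20979), the main calcium sensor of fast release, differed from the rest. Its levels were 4.31, 4.61, 4.31 and 4.54 in controls and 4.99, 5.33 and 6.38 in knockdown samples. Every knockdown array lay above every control, with replicate 3 over 1 log2 unit above replicates 1 and 2. The difference was 1.12 (SE 0.31, 95% interval 0.40 to 1.85) or 2.18-fold, with limma adjusted p = 0.825 and exact permutation p = 0.0286, and it was 0.72 (SE 0.16) without knockdown replicate 3.

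The brightest synaptotagmin probe sets, Syt11 and Syt4, pointed down; both encode forms that do not act as fast calcium sensors because a residue of the calcium site is changed. Syt11 stood at 9.38, 9.18, 9.16 and 9.35 in controls and 8.97, 9.15 and 9.15 in knockdown samples. The groups did not overlap, but knockdown replicates 2 and 3 lay only just under the lowest control, and the difference was -0.18 (SE 0.11, limma unadjusted p = 0.15, exact permutation p = 0.0857). Syt4 read 7.77, 7.63, 7.41 and 7.40 in controls and 6.36, 7.36 and 7.46 in knockdown samples. Only knockdown replicate 1 was well below the controls, and the difference of -0.49 (SE 0.27) shrank to -0.14 without it. The other 9 synaptotagmins (Syt2, Syt3, Syt5, Syt6, Syt7, Syt9, Syt13, Syt16 and Syt17) overlapped between groups, with differences from 0.0085 to 0.25 and unadjusted p of 0.329 or more.

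Among the 6 measured SNARE proteins and complexins, none had an unadjusted p under 0.05, and 4 were highest on knockdown replicate 3. Snap25, the SNARE of the plasma membrane that supplies a pair of helices to the fusion complex, read 6.37, 7.48, 7.17 and 6.97 in controls and 6.63, 7.13 and 8.14 in knockdown samples. Its groups overlapped, and the difference was 0.31 (SE 0.39) with knockdown replicate 3 and -0.12 without it. Its partner on the same membrane, Stx1a (syntaxin 1A), differed by 0.37 (SE 0.29) and by 0.062 without that array, and the vesicle SNARE Vamp1 by 0.38 (SE 0.19) and 0.18.

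Complexins clamp partly assembled SNARE complexes until calcium arrives. Cplx2 read 7.73, 8.01, 8.32 and 8.09 in controls and 7.84, 7.49 and 7.85 in knockdown samples. The groups overlapped at control replicate 1, and the difference was -0.31 (SE 0.17). Cplx1 and Cplx3 differed by 0.054 (SE 0.28) and -0.11 (SE 0.12), and Cplx1 lay below 0 with equal array medians (-0.052) and after the quantile normalization (-0.016).

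Proteins of the vesicle membrane and coat showed the excess on knockdown replicate 3 most often: it was the highest array for 7 of the 8. Sv2b (Entrez 64176), a transporter-like glycoprotein of the vesicle, gave the largest single value, at 3.78, 3.72, 3.73 and 3.56 in controls and 3.54, 3.74 and 7.30 in knockdown samples. Knockdown replicates 1 and 2 lay within or just under the range of the controls, and replicate 3 lay 3.60 above the control mean. The difference over all arrays, 1.16 (SE 0.85), did not exceed this spread, and it was -0.059 without that array.

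Its relative Sv2a read 4.72, 5.46, 5.56 and 6.00 in controls and 5.05, 5.16 and 7.18 in knockdown samples, and Sv2c differed by -0.18 (SE 0.18). Snap91, which encodes the clathrin adaptor AP180 that retrieves vesicle membrane, read 6.04, 6.64, 6.51 and 6.70 in controls and 5.84, 5.84 and 8.12 in knockdown samples. Here knockdown replicates 1 and 2 were below all controls and replicate 3 was above all of them, so the difference was 0.13 (SE 0.55) with replicate 3 and -0.63 (SE 0.20) without it. Syp (synaptophysin, an abundant vesicle membrane protein) read 7.53, 7.29, 7.68 and 7.25 in controls and 7.35, 7.13 and 8.08 in knockdown samples, a difference of 0.081 (SE 0.24), and of -0.025 with the array medians set equal. The synapsins, which tether vesicles to actin, differed by 0.19 (Syn1, SE 0.22), 0.066 (Syn2, SE 0.18; -0.040 with the array medians set equal) and 0.32 (Syn3, SE 0.28).

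Active zone and priming proteins were mixed. The GTPases of the Rab3 family, which bring vesicles to the active zone, held the lower values. Rab3c (Entrez 67295) read 5.96, 6.39, 6.66 and 6.17 in controls and 5.42, 5.12 and 6.24 in knockdown samples. Knockdown replicates 1 and 2 lay below all controls while replicate 3 fell inside their range. The difference was -0.70 (SE 0.29, 95% interval -1.37 to -0.031; limma adjusted p = 0.825, exact permutation p = 0.143), and -0.47 without knockdown replicate 2. Rab3a read 7.48, 7.62, 8.04 and 7.44 in controls and 6.98, 7.26 and 7.50 in knockdown samples, with the same arrangement of arrays and a difference of -0.40 (SE 0.19). Rab3b differed by 0.11 (SE 0.29).

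Unc13a encodes Munc13-1, the priming factor that opens syntaxin, and was the only gene of the 48 with more than 1 probe set. Its brightest probe set read 7.63, 7.44, 7.73 and 7.80 in controls and 8.51, 7.31 and 7.63 in knockdown samples, highest on knockdown replicate 1. The other 2 probe sets disagreed with it, being highest on knockdown replicate 3 (8.02 against 6.12 to 6.46 in controls, and 7.44 against 5.79 to 6.22). The 3 differences were 0.17, 0.27 and 0.54. Pclo, which encodes the giant active zone scaffold piccolo, read 4.42, 4.53, 5.09 and 4.52 in controls and 4.75, 4.74 and 6.16 in knockdown samples, and its difference of 0.57 (SE 0.37) was 0.10 without replicate 3. Bsn (bassoon, a related scaffold), Rims1, Rims2 (RIM scaffolds that bind Rab3 and calcium channels) and Unc13b differed by 0.30, 0.31, -0.026 and 0.22, each with an unadjusted p of 0.185 or more.

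All 7 synaptic adhesion and scaffold genes had higher means in knockdown samples under every scaling tried, and 5 of the 7 remained higher without knockdown replicate 3, Dlg2 and Nrxn2 being the exceptions. Neuroligins are postsynaptic partners of the presynaptic neurexins. Nlgn3 (Entrez 245537) read 5.49, 5.75, 6.19 and 5.57 in controls and 6.39, 6.16 and 6.77 in knockdown samples. Only control replicate 3 overlapped with the knockdown arrays. The difference was 0.69 (SE 0.21, 95% interval 0.19 to 1.196; limma adjusted p = 0.825, exact permutation p = 0.0857), and it lay between 0.53 and 0.84 with any 1 array left out.

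Nlgn1 and Dlg2 owed their difference to 1 array. Nlgn1 read 6.13, 6.08, 5.88 and 5.33 in controls and 6.13, 5.88 and 7.70 in knockdown samples (0.72, SE 0.44, and 0.15 without knockdown replicate 3). Dlg2, which encodes the scaffold PSD-93, read 3.98, 3.72, 3.66 and 3.88 in controls and 3.66, 3.68 and 6.28 in knockdown samples (0.74, SE 0.61, and -0.14 without it). Nrxn2 differed by 0.22 (SE 0.35), and by -0.25 without that array.

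Nrxn3, a neurexin, followed another array: it read 4.22, 3.98, 3.83 and 3.80 in controls and 3.81, 5.41 and 4.31 in knockdown samples, highest on knockdown replicate 2 (difference 0.55, SE 0.35, and 0.098 without that array). That array also had the highest mean level of 10 inhibitory neuron markers, 6.19, against 4.24 to 4.55 in controls and 4.83 and 4.88 on knockdown replicates 1 and 3. On it 5 of the 10 markers lay over 1 log2 unit above their control mean. Among them Dlx5, a transcription factor of GABA neurons, read 8.73, against 4.60 to 4.76 in controls and 6.31 and 5.40 on knockdown replicates 1 and 3. Of the enzymes that make GABA, Gad2 read 6.03 (3.68 to 4.12 in controls) and Gad1 3.97 (3.42 to 3.98). Over all arrays 9 of the 10 markers were higher. All 3 knockdown arrays lay above all controls for 4 of them, where they did for 2.59% of all genes. The part of these markers in the value of Nrxn3 was not tested. Nlgn2, the neuroligin of inhibitory synapses, read 7.39, 8.05, 8.28 and 7.73 in controls and 8.19, 7.77 and 8.46 in knockdown samples (0.28, SE 0.25). Dlg4, which encodes the scaffold PSD-95, read 7.72, 7.72, 7.72 and 7.65 in controls and 8.16, 7.61 and 8.09 in knockdown samples (0.25, SE 0.15). The groups of both genes overlapped.

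**Figure D5:**
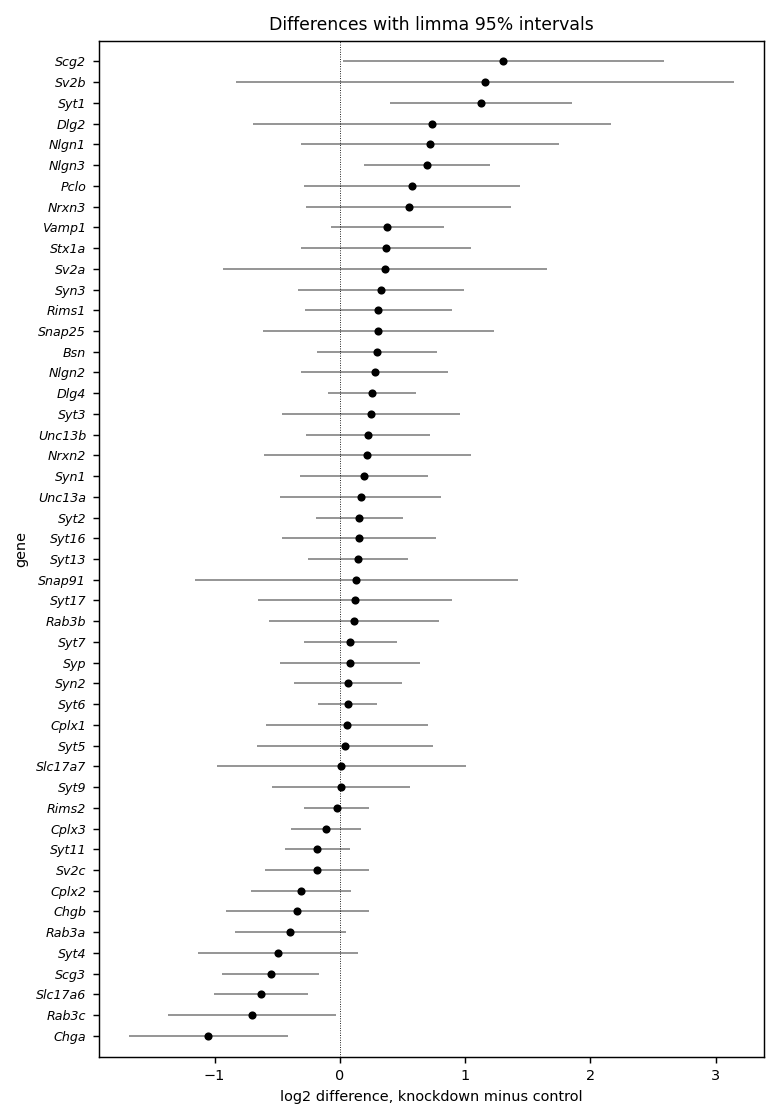
Log2 difference of knockdown minus control (horizontal axis, points) with the 95% interval of limma (lines) for the 48 genes, sorted by size. Intervals of Scg2, Syt1, Nlgn3, Scg3, Slc17a6, Rab3c and Chga leave out 0 before adjustment, and that of Sv2b is the widest.

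Knockdown replicate 3 was singled out by the high values of these same 48 genes, so the counts on it restate that choice. It was the highest of the 7 arrays for 28 of the 48 genes (58.3%), where it was so for 19.6% of all genes. On it 12 of the 48 lay over 1 log2 unit above their control mean, where 1.97% of all genes did; they were Sv2b, Scg2, Dlg2, Syt1, Nlgn1, Sv2a, Snap91, Pclo, Nrxn2, Snap25, Slc17a7 and Nlgn3. Knockdown replicates 1 and 2 had 0 and 1 such genes, beside 2.17% and 1.35% of all genes. Brighter and dimmer probe sets differed in their directions. Of the 24 genes above the median level of the 48 (5.45), 14 were higher and 10 lower, and of the 24 below it 22 were higher and 2 lower. Among all genes above that level 3071 were higher and 5379 lower, and among those below it 6858 were higher and 4630 lower. On knockdown replicate 3 the brighter release genes had a median deviation of 0.41, where all genes of that brightness had -0.20.

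Genes of the same machinery outside the list went along only in part. Of 143 such genes, written down from general knowledge but with earlier results of these data known, 135 were measured. Of these, 82 were higher and 53 lower (62 and 72 without knockdown replicate 3). By limma 2 of the 135 in each direction had an unadjusted p under 0.05, and 0 passed after adjustment. Among all genes 2.20% were higher and 3.61% lower at that unadjusted threshold. Knockdown replicate 3 was the highest array for 49 of the 135 (36.3%), and 18 (13.3%) lay over 1 log2 unit above their control mean on it. Among these 18, the calcium channel gene Cacna1e read 7.63 (4.16 to 4.92 in controls), the dynamin gene Dnm1, whose product pinches off recycled vesicles, 7.73 (5.13 to 5.60), and the postsynaptic scaffold gene Shank1 6.63 (3.96 to 4.42). The 33 vesicle protein and recycling genes gave 8 of the 18, and 10 further synaptotagmin and synaptotagmin-like genes gave 0. Those 10 were dim, with mean levels of 3.91 to 4.13 on control arrays and 3.96 to 4.16 on knockdown arrays, where array medians were 4.40 to 4.61. The 27 further fusion and priming genes were split 12 higher and 15 lower, and knockdown replicate 3 was highest for 6. Snap47, a relative of Snap25, read 7.68, 7.66, 7.33 and 7.37 in controls and 6.55, 6.41 and 7.27 in knockdown samples (-0.77, SE 0.22, limma unadjusted p = 0.0100).

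Several marker lists moved with single arrays. The mean level of 19 neuronal markers was 8.09 to 8.34 in controls, 7.76 and 8.07 on knockdown replicates 1 and 2, and 8.70 on knockdown replicate 3, where 11 of the 19 were highest. Among them Mapt, which encodes the axonal protein tau, read 7.78 (5.31 to 5.98 in controls), whereas Dcx (doublecortin, of young migrating neurons) read 9.63 (9.67 to 10.3) and Tubb3 (neuronal tubulin) 10.4 (10.5 to 10.7). Mean levels of 11 radial glia markers were 7.96 to 8.67 in controls and 8.48, 8.35 and 8.07 in knockdown samples, and those of 10 intermediate progenitor markers 8.68 to 8.97 and 8.79, 8.39 and 8.64. Of the 10 intermediate progenitor markers 7 were lower, as were 5379 of all 8450 genes above a level of 5.45. By limma 3 of the 10 were lower with an unadjusted p under 0.05, where 3.61% of all genes were. They were Rasgef1b (-0.94, SE 0.21), Sstr2 (-0.65, SE 0.20) and Mfng (-0.46, SE 0.18). The 3 higher ones were Gadd45g (0.39, SE 0.63), Neurog1 (0.13, SE 0.53) and Neurog2 (0.024, SE 0.31), and Eomes differed by -0.074 (SE 0.22). Of the 19 neuronal markers 11 were lower, 2 of them at that threshold, and of the 11 radial glia markers 7 were lower, 1 of them at that threshold. Mean levels of 8 Cajal-Retzius markers were 4.28 to 4.45 in controls and 4.32, 4.47 and 4.78 in knockdown samples. Knockdown replicate 3 was the highest array for 3 of the 8. There Reln (reelin) read 7.68 (4.72 to 5.16 in controls), Calb2 3.72 (3.15 to 3.41) and Cacna2d2 5.39 (5.05 to 5.06). Ndnf (3.48) and Lhx5 (3.42) lay below all controls on it, but both lay below the array medians on every array. Levels of the neuronal markers Tubb3 and Dcx, the radial glia markers Sox2 and Pax6 and the intermediate progenitor marker Eomes lay above the array medians of 4.40 to 4.61 on every array, whereas the neurofilament gene Nefl lay below them on every array (3.02 to 3.84).

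Markers of cells from outside the neural lineage varied in both groups. Endothelial and mural markers (10 genes) averaged 4.22 to 6.28 in controls, highest on control replicate 4, and 6.95, 5.85 and 4.97 in knockdown samples. Microglial markers (10 genes) averaged 6.21 to 8.84 and 7.26, 8.25 and 6.98, red blood cell markers (6 genes) 6.06 to 7.07 and 6.53, 7.23 and 7.08, and meningeal fibroblast markers (8 genes) 3.98 to 4.12 and 4.24, 4.56 and 4.08. None of these 4 lists was highest on knockdown replicate 3. The part of any marker list in the values of the release genes was not tested. Of the repressors that hold release genes silent outside neurons, Rest read 5.94, 5.95, 6.01 and 6.07 in controls and 6.49, 6.10 and 5.62 in knockdown samples, lowest on knockdown replicate 3 (difference 0.078, SE 0.20). Among Rest and 10 cofactors 3 were higher and 8 lower, where 5379 of all 8450 genes above a level of 5.45 were lower. The 1 with an unadjusted limma p under 0.05 was the corepressor Rcor2 (-0.35, SE 0.14), where 3.61% of all genes were lower at that threshold.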

How the data were processed

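RNA of 7 samples was amplified by a whole-transcriptome kit and hybridised to 1 Affymetrix array each, per the labels' protocols. The authors deposited log2 values; per the submitters' processing notes, these come from Affymetrix Expression Console 1.2 and RMA. For the annotation of the array, the genome build was not given in the sources used here. Of 35556 probe sets, 21789 had 1 gene symbol, 1621 several and 12146 none in an annotation table; symbols were updated by Entrez identifier through RefSeq (GRCm38.p6, 21698 matched). The brightest probe set by mean stood for each gene, which left 19938 genes. RMA can give 2 arrays an identical value, as in 11 of the 48 genes and 24.6% of all genes. Arrays have no read depth, and precision is limited by how many there are.

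The groups were compared in limma 3.58.1 (R 4.3.3; lmFit, eBayes, 5 residual and 2.36 prior degrees of freedom), two-sided, with Benjamini-Hochberg adjustment over all genes and a threshold of 0.05. Single genes were also tested by an exact permutation test over 35 splits. On simulated data with 19938 genes, 46% of changes of 1 log2 unit were recovered and 85% of changes of 2, and each run made 9.2 false calls on average. The simulation drew independent noise for each gene and array. It held no shifts shared by many genes on 1 array, so these shares may not hold for the real arrays.

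Members and gene lists were chosen with earlier results of these data known. Named genes are all listed genes; every array is shown for those with an unadjusted p under 0.05, with groups that do not overlap, or among the 2 brightest of their role. Of the other lists, up to 3 genes with the smallest p were eligible. Further genes shown by array (Chgb, Sv2a, Sv2b, Nlgn1, Nrxn3, Dlg2, Pclo, Cacna1e, Dnm1, Mapt, Gad1, Tubb3) were picked after their values were seen. Gad2, Ndnf, Lhx5, Calb2, Cacna2d2, Gadd45g, Neurog1, Neurog2, Nefl, Sox2, Pax6 and Eomes also fall outside these rules.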

Additional observations from a re-analysis of the deposited data

Results flagged for a closer look

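In the group of 4 controls, 1 array was flagged as apart from the other 3 for 6 of the 48 genes. The rule flags about 1 in 20 by chance. Its share over all genes is not given here, so no excess is read from this count. For Syt6 and Dlg4 the gap was small and the other 3 values were equal. Groups of 3, such as the knockdown samples, were not tested. Control replicate 4 stood low for Syt13 (4.465, others 5.05 to 5.08), for Syt6 (4.165, the other 3 equal at 4.29) and for Dlg4 (7.652, the other 3 equal at 7.72). Control replicate 1 stood high for Cplx1 (5.678, others 4.85 to 4.97), control replicate 2 for Syn1 (6.633, others 6.19 to 6.20) and control replicate 3 for Pclo (5.09, others 4.42 to 4.53).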

How the results depend on the processing

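Direction held for 25 of the 48 genes under every alternative that measured them. The alternatives were array weights, a trend or robust variance, 2 filters on dim probe sets (46 and 31 genes left), other choices of probe set, 3 other scalings, a replicate block and leaving out each array. The count of 0 genes past the adjusted threshold also held. With array weights, Syt9 (-0.088), Snap91 (-0.046) and Slc17a7 (-0.12) turned negative. With the array medians set equal, Syt5 (-0.066), Syt6 (-0.045), Syt7 (-0.023), Syt9 (-0.10), Cplx1 (-0.052), Syn2 (-0.040), Syp (-0.025) and Slc17a7 (-0.094) did, the median over the 48 genes was 0.043, and 7 lower genes had an unadjusted p under 0.05, beside 7.56% of all genes. After a further quantile normalization, Syt5 (-0.013), Syt6 (-0.036), Syt7 (-0.021), Syt9 (-0.092), Cplx1 (-0.016) and Slc17a7 (-0.012) did, and after cyclic loess Syt9 (-0.045) and Slc17a7 (-0.016). Knockdown and control arrays of the same number did not deviate together (correlations 0.028, -0.051 and 0.072), and with the replicate block Syt9 (-0.079), Syt13 (-0.0043), Cplx1 (-0.012), Rab3b (-0.029) and Slc17a7 (-0.11) turned negative, with 3 higher and 5 lower genes at an unadjusted p under 0.05, beside 3.23% and 4.22% of all genes. The causes were not tested.

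With 1 array left out at a time, the genes at an unadjusted p under 0.05 numbered 1 to 5 higher and 3 to 7 lower, beside 1.51% to 4.42% and 2.35% to 7.63% of all genes. Those without overlap numbered 1 to 8 higher and 4 to 8 lower, beside 3.90% to 9.73% and 4.16% to 11.1% of all genes. The median over the 48 genes ran from -0.097 (without knockdown replicate 3) to 0.31 (without knockdown replicate 2). The sign of 22 genes changed. Their ranges were -0.13 to 0.47 for Syt3, -0.20 to 0.42 for Syt5, -0.077 to 0.21 for Syt7, -0.25 to 0.14 for Syt9, -0.0043 to 0.20 for Syt13, -0.14 to 0.31 for Syt16, -0.063 to 0.39 for Syt17, -0.12 to 0.64 for Snap25, -0.21 to 0.25 for Cplx1, -0.055 to 0.31 for Syn1 and -0.12 to 0.17 for Syn2. They were -0.20 to 0.28 for Syp, -0.33 to 0.74 for Sv2a, -0.059 to 1.82 for Sv2b, -0.63 to 0.51 for Snap91, -0.021 to 0.50 for Rims1, -0.081 to 0.054 for Rims2, -0.18 to 0.42 for Unc13a, -0.16 to 0.30 for Rab3b, -0.49 to 0.40 for Slc17a7, -0.25 to 0.58 for Nrxn2 and -0.14 to 1.18 for Dlg2. With 4 and 3 arrays, changes of 1 log2 unit were recovered in 46% of cases simulated with independent noise, and dim probe sets understate differences.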
